A study of Homo sapiens with 12 samples.

Results

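The mRNA of 7 genes was followed across 4 lines of HepG2, a human hepatoma cell line: ZHX1, ZHX2, ZHX3, the related HOMEZ, and the NF-Y subunit genes NFYA, NFYB and NFYC. They were taken by symbol from a table of 26485 genes, with earlier results of these data known. All 7 were among the 15289 genes with enough reads to test. Every line was made by lipofection with a CRISPR vector followed by blasticidin selection, so the control cells carry the same handling. The Empty line received a construct without a guide and is labelled wild type. The Z2, Z5 and Z9 lines each received a different ZHX3-directed guide and are labelled ZHX3-depleted. Each line was seeded in 3 wells, called a, b and c, which gives 12 RNA-seq libraries. Wells of 1 line share that line's history, and there is 1 Empty line, so p-values measure the spread between wells and a property of a single line cannot be told apart from an action of its guide. Whether a line is a single clone or a pool is not given in the sources used here.

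ZHX proteins carry zinc fingers and several homeodomains, and are known as nuclear transcriptional repressors that pair with one another. ZHX1 was found as a partner of NFYA, and ZHX2 and ZHX3 were then found through their binding to NFYA or ZHX1. In mouse liver ZHX2 is known for switching off alpha-fetoprotein after birth. HOMEZ is a related homeodomain protein with leucine zippers. NF-Y is a trimer that binds the CCAAT box of many promoters: NFYB and NFYC form a histone-fold pair, and NFYA joins it and reads the DNA.

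ZHX3 (RefSeq GRCh38.p14, chr20:41178455-41317731, minus strand) and NFYA (chr6:41072974-41102403, plus strand) are the targeted gene and the subunit gene called lower, and HOMEZ (chr14:23272422-23286132, minus strand) and NFYC (chr1:40691704-40771603, plus strand) have CCAAT in theirs. Promoters are shown for these 4, the members with an entry in the RefSeq promoter table, and not for ZHX1, ZHX2 and NFYB. Each is the 250 bases before the RefSeq start, 5′ to 3′ on the gene's own strand, with the letters CCAAT, or ATTGG for the same box on the other strand, in capitals.
HOMEZ (chr14:23286133-23286382): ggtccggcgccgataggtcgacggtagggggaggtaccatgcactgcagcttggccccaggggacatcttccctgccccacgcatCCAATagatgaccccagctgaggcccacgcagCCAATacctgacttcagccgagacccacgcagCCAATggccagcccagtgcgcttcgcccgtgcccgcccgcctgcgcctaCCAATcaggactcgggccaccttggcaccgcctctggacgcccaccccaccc
NFYC (chr1:40691454-40691703): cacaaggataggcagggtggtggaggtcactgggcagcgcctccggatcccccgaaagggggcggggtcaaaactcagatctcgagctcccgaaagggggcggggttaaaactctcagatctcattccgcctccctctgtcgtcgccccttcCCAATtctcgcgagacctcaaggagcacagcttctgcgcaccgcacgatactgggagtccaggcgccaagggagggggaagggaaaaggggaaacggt
ZHX3 (chr20:41317732-41317981): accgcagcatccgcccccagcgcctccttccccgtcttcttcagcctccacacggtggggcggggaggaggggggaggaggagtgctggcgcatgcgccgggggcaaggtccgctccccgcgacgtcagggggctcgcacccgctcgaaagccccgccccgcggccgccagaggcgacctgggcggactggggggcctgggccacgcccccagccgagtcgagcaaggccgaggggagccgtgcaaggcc
NFYA (chr6:41072724-41072973): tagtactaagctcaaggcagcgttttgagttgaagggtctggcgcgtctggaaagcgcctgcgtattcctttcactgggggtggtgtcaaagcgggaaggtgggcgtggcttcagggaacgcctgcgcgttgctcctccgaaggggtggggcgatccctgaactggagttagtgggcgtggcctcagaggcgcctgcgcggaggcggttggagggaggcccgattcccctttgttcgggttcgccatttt
The HOMEZ window held 4 copies of CCAAT, whose first bases lay 165, 133, 101 and 52 bases before the start. The NFYC window held 1 copy, 98 bases before the start. No copy on either strand was found in the ZHX3 or NFYA windows. Of 27305 genes in the RefSeq promoter table, 33% held at least 1 copy in this window and 0.916% held 4 or more. Of the 10918 tested protein-coding genes with an entry, 1.5% held 4 or more, so HOMEZ is among the few with that many. A match of these 5 letters is a description of sequence only.

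ZHX3, the gene named by the guides, had nearly the same mRNA level in all 12 wells. In CPM, the read count scaled to a common library total, wells a, b and c of Empty had 33, 32.7 and 33.5. Those of Z2 had 34.9, 33.8 and 34.8, those of Z5 had 33.5, 32.5 and 32.8, and those of Z9 had 34.7, 33.5 and 34.8. The Z5 wells lay within or just below the Empty range, and those of Z2 and Z9 at or above it. The mean of the 3 labelled lines was 1.03 times Empty with a 95% interval of 0.967 to 1.09, and larger falls of ZHX3 mRNA lie outside that interval. The variation of ZHX3 between wells was also low: its biological coefficient of variation was 0.0450, at percentile 0.562 of all tested genes. A count over the whole gene does not show a small insertion or deletion and says nothing of the protein, so it does not check the edit.

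**Figure D1:**
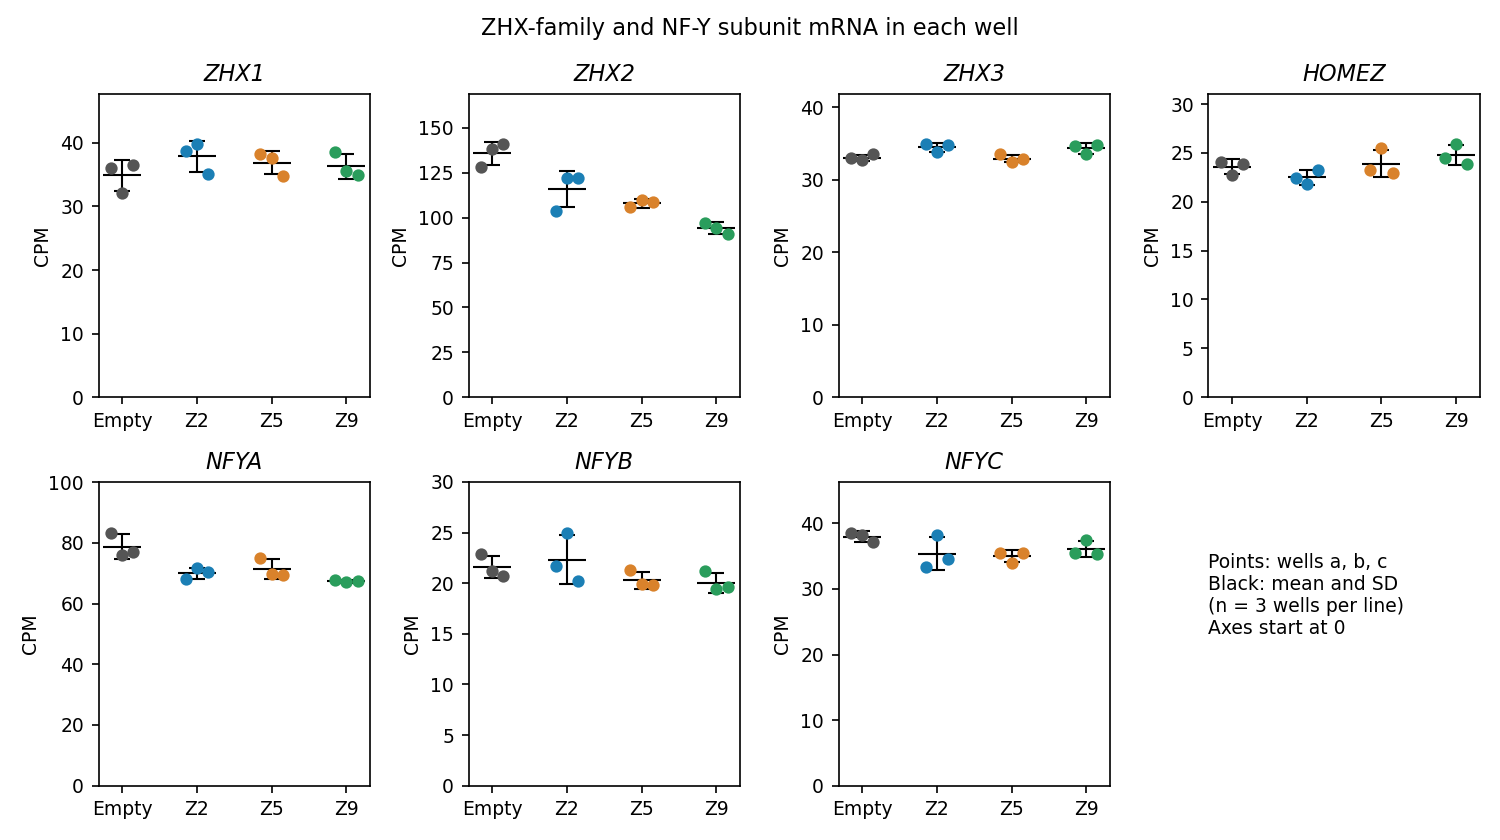
Level of each of the 7 genes in CPM (vertical axis from 0) in wells a, b and c of the Empty, Z2, Z5 and Z9 lines; points are wells, black bars the mean and SD of 3 wells. All 9 labelled wells of ZHX2 and of NFYA lie below all 3 Empty wells, and for the other 5 genes the wells overlap.

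ZHX2, not ZHX3, was the member of the ZHX family whose mRNA fell, and it fell in each labelled line. The ZHX2 gene lies at chr8:122780379-122974510. Empty wells a, b and c had 128, 138 and 141 CPM. Z2 wells had 104, 122 and 122 CPM, Z5 wells 106, 110 and 109 CPM, and Z9 wells 97.3, 94.5 and 90.8 CPM. All 9 labelled wells lay below all 3 Empty wells, which was so for 8.31% of the tested genes, and the 3 Z9 wells lay below every other well.

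Against Empty, ZHX2 changed on the log2 scale by -0.22 (SE 0.060, adjusted p = 0.0130) in Z2, by -0.32 (SE 0.061, adjusted p = 0.00158) in Z5 and by -0.53 (SE 0.061, adjusted p = 1.02e-05) in Z9, by edgeR's quasi-likelihood test with Benjamini-Hochberg adjustment over all tested genes. Averaged over the 3 lines, ZHX2 was 0.781 times Empty, with a 95% interval of 0.727 to 0.838. The line mean was highest in Empty (136 CPM), then came Z2 (116 CPM), Z5 (108 CPM) and Z9 (94.2 CPM). Within that order Empty and Z2 differed past the threshold, whereas Z2 and Z5 did not (adjusted p = 0.569). Z9 minus Z5 was -0.20 with a 95% interval of -0.33 to -0.08, and the wells of these lines did not overlap, but the difference missed the threshold over all genes (adjusted p = 0.112) and passed when those 2 lines alone were fitted (adjusted p = 0.0159). Z9 was lower than Z2 by a log2 fold change of -0.30 (SE 0.061, adjusted p = 0.0151). That call was lost when well c of Z2 (-0.26, adjusted p = 0.0508), well b of Z9 (-0.30, adjusted p = 0.0657) or well c of Z9 (-0.28, adjusted p = 0.0575) was left out. It was also lost when Z2 and Z9 alone were fitted (-0.30, adjusted p = 0.107). Against Empty, ZHX2 passed in each of the 3 lines in all 12 refits that left out 1 well. Its call in Z2 was lost when Empty and Z2 alone were fitted (-0.22, adjusted p = 0.0599), and that of the mean when the wells of each line were summed (-0.36, adjusted p = 0.0518). The comparisons with Empty share its wells and are not independent of each other.

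ZHX1, the family's first member, lies 0.385 Mb from ZHX2 at chr8:123248456-123275541 and did not follow it. Empty wells had 36.1, 32.1 and 36.5 CPM, Z2 wells 38.7, 39.8 and 35.1 CPM, Z5 wells 38.2, 37.6 and 34.8 CPM, and Z9 wells 38.5, 35.5 and 35.0 CPM. The lowest well was well b of Empty, and each labelled line overlapped the other Empty wells. The mean of the labelled lines was 1.06 times Empty, with an interval of 0.979 to 1.15 and an adjusted p of 0.272. Reads of ZHX1 and of the readthrough gene ZHX1-C8orf76 cannot be told apart where they overlap, but the readthrough gene had a mean of 0.364 CPM in Empty against 34.9 CPM for ZHX1.

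HOMEZ had 24, 22.7 and 23.9 CPM in the Empty wells, 22.4, 21.8 and 23.3 CPM in Z2, 23.3, 25.5 and 22.9 CPM in Z5, and 24.5, 25.9 and 23.9 CPM in Z9. The wells of all 4 lines overlapped apart from Z2 and Z9, where the highest Z2 well lay below the lowest Z9 well. HOMEZ in Z9 was 1.10 times Z2, with an interval of 1.00 to 1.21, and this did not pass the threshold (adjusted p = 0.192). On average the labelled lines had 1.00 times Empty, with an interval of 0.933 to 1.08.

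Among the NF-Y subunits, NFYA, the DNA-reading subunit, fell. Empty wells a, b and c had 83.4, 76.1 and 76.9 CPM. Z2 wells had 68.0, 71.6 and 70.3 CPM, Z5 wells 75.1, 69.9 and 69.3 CPM, and Z9 wells 67.7, 67.0 and 67.4 CPM. All 9 labelled wells again lay below the 3 Empty wells, but the gap was narrow, from 75.1 CPM in well a of Z5 to 76.1 CPM in well b of Empty. The change against Empty was -0.17 (SE 0.051, adjusted p = 0.0225) in Z2, -0.14 (SE 0.051, adjusted p = 0.0707) in Z5 and -0.23 (SE 0.051, adjusted p = 0.00483) in Z9, so the Z5 value did not pass. The mean of the labelled lines was 0.883 times Empty, with an interval of 0.831 to 0.938 and an adjusted p of 0.00403. Without well a of Empty, the highest well, the mean change was -0.14 and its call was lost (adjusted p = 0.0642). The call in Z2 was also lost without that well (-0.13, adjusted p = 0.137) and without well a of Z2 (-0.15, adjusted p = 0.0541). No pair of labelled lines differed in NFYA past the threshold, and the largest of these differences was -0.08 for Z9 minus Z5 (adjusted p = 0.474).

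The genes of the histone-fold pair did not pass in any comparison. NFYB (chr12:104117086-104138210) had 22.9, 21.2 and 20.7 CPM in the Empty wells, 21.7, 25.0 and 20.2 in Z2, 21.3, 19.9 and 19.8 in Z5, and 21.2, 19.4 and 19.6 in Z9. Well b of Z2 was the highest, and all lines overlapped. Averaged over the labelled lines, NFYB was 0.967 times Empty, with an interval of 0.883 to 1.06 and an adjusted p of 0.608.

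NFYC had 38.6, 38.2 and 37.1 CPM in the Empty wells, 33.3, 38.2 and 34.6 in Z2, 35.5, 33.9 and 35.5 in Z5, and 35.5, 37.5 and 35.3 in Z9. The Z5 wells lay below all Empty wells, while well b of Z2 and well b of Z9 fell within the Empty range. Averaged over the labelled lines, NFYC was 0.935 times Empty, with an interval of 0.873 to 1.00 and an adjusted p of 0.145. Without well b of Z2 this difference passed (-0.12, adjusted p = 0.0273), so 1 library decides its side of the threshold. The interval of NFYC overlaps that of NFYA, and no test compared them. Reads of NFYC and of its antisense neighbour NFYC-AS1 cannot be told apart where they overlap, since the strand setting of the counting is not given in the sources used here. NFYC-AS1 had a mean of 1.97 CPM in Empty.

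**Figure D2:**
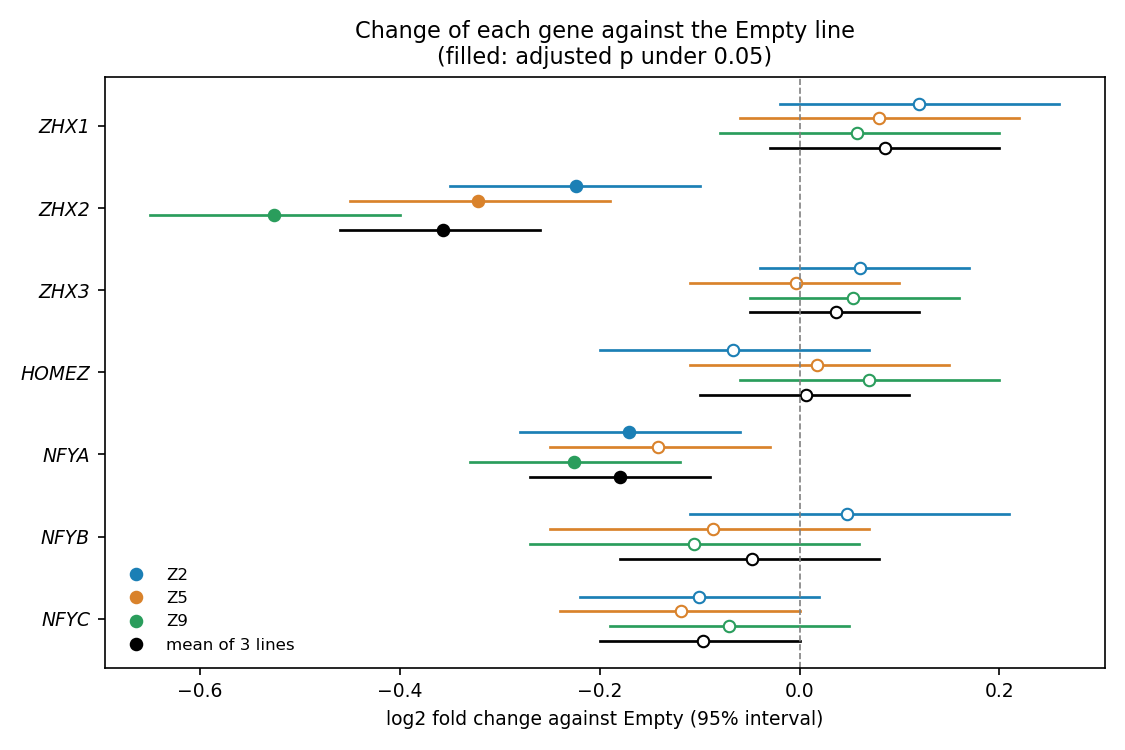
Log2 fold change against Empty (horizontal axis) with its 95% interval for each of the 7 genes in Z2, Z5, Z9 and the mean of the 3 lines; filled points have an adjusted p under 0.05. ZHX2 is filled in all 4 rows, from -0.22 to -0.53, NFYA in all but Z5, and the other 5 genes in none.

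Counted over the 7 genes, 2 were called lower in Z2 (ZHX2 and NFYA), where 23.9% of all tested genes were called in either direction and 11.5% were called lower. In Z5, 1 of 7 was called (ZHX2), with 15% of all genes called and 6.68% lower. In Z9, 2 of 7 were called (ZHX2 and NFYA), with 19.2% of all genes called and 9.58% lower. For the mean of the 3 lines 2 of 7 were called, against 25.6% of all genes, so the share of members called is near that of genes at large. The test for any difference among the 4 lines called the same pair, ZHX2 (adjusted p = 6.46e-05) and NFYA (adjusted p = 0.0168), with 24.9% of all genes called. Between labelled lines, Z9 minus Z2 called ZHX2 alone, with 5.17% of all genes called and 3.21% lower. By edgeR, Z5 minus Z2 called 0 of the 7 with 0.00654% of all genes called, and Z9 minus Z5 called 0 with 1.52%. DESeq2's test also called 0 of the 7 in each, with 9 and 495 of 15289 genes called. Before adjustment, 0 members passed 0.05 for Z5 minus Z2 in edgeR, and 1, ZHX2, for Z9 minus Z5. No member was called higher in any comparison.

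Divided by exon length, ZHX2 and NFYA were also the members with the highest levels. Over all 12 wells ZHX2 had 24 CPM per kb of exons, at percentile 88.2 of the tested genes with a known length, and NFYA had 18.9 CPM per kb, at percentile 84.7. NFYC (6.03 CPM per kb), ZHX1 (5.41), HOMEZ (4.28) and NFYB (4.25) stood between percentiles 51.1 and 59.8. ZHX3 was the lowest of the 7, with 2.90 CPM per kb at percentile 43.1. ZHX3 has the longest exons, 11621 bases against 4716 for ZHX2, so that similar CPM of ZHX3 and ZHX1 stand for different levels per length. The level of NFYC depends most on the length used, with 5990 bases over all exons and 2363 bases in its longest transcript. HOMEZ and NFYB overlap in their wells and have no fixed order.

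**Figure D3:**
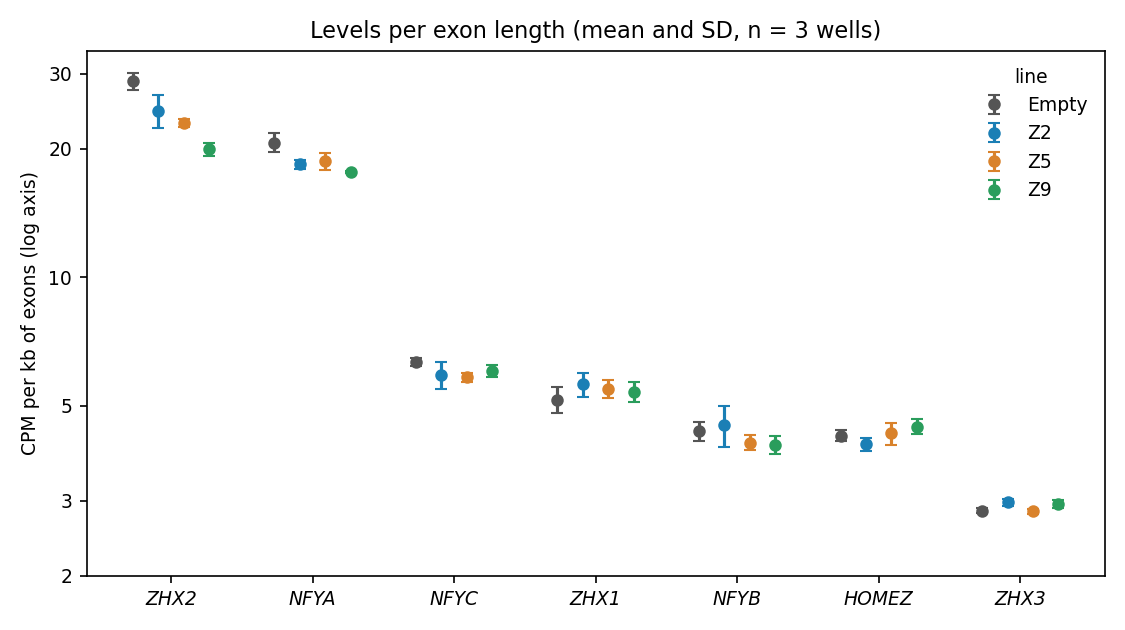
Level per exon length (CPM per kb, log axis) of the 7 genes in the 4 lines; points are means and bars the SD of 3 wells. ZHX2 and NFYA stand above 17 CPM per kb in every line and ZHX3 near 2.9.

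Because ZHX2 was the most abundant and ZHX1 and ZHX3 did not fall, the make-up of ZHX mRNA moved. ZHX2 made up 78.2% ± 1.25 (SD, n = 3 wells) of the summed per-length level of ZHX1, ZHX2 and ZHX3 in Empty. In Z2 it made up 74.1% ± 2.18, in Z5 73.5% ± 0.971 and in Z9 70.6% ± 0.473. The highest labelled well, 76% in well c of Z2, lay below the lowest Empty well at 76.9%. The share of ZHX3 was 7.73% ± 0.242 in Empty and 10.4% ± 0.404 in Z9, while its own level was 2.84 and 2.95 CPM per kb. The summed ZHX level was 36.8 ± 1.35 CPM per kb in Empty and 28.3 ± 0.954 in Z9.

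NFYA made up 65.9% ± 0.611 of the summed per-length level of the 3 NF-Y subunits in Empty. In Z2 it made up 63.9% ± 1.53, in Z5 65.4% ± 0.611 and in Z9 63.7% ± 0.473. The Empty wells spanned 65.2% to 66.4%, and wells of Z2 and Z5 reached into that range while those of Z9 did not. With the longest transcript as the length, the share of NFYA was 48.2% in Empty and 45.7% in Z9, so its size depends on the length of NFYC. The summed NF-Y level was 31.4 ± 1.42 CPM per kb in Empty and 27.7 ± 0.252 in Z9.

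The genes whose log2 CPM followed each member most closely over the 12 libraries were found among 11669 genes, as a description with no test. They were PDE8A (r = 0.966), ADIPOR2 (r = 0.958) and LOX (r = 0.944) for ZHX2, and MRS2 (r = 0.971), VDAC3 (r = 0.948) and PSMD1 (r = 0.947) for NFYA. PDE8A had line means of 62.7, 59.3, 55.9 and 50.8 CPM in Empty, Z2, Z5 and Z9, the order in which ZHX2 stands. PDE8A was picked by its r over these same libraries, so the shared order adds nothing to that r. For NFYB they were ZDHHC13 (r = 0.956), MBNL3 (r = 0.947) and MON2 (r = 0.944), and for NFYC NUP153 (r = 0.928), MED16 (r = 0.918) and GUF1 (r = 0.905). ZHX1 was closest to GPLD1 (r = 0.869), N4BP2 (r = 0.868) and KIN (r = 0.863). ZHX3 was closest to ZDHHC3 (r = 0.848), GYLTL1B and ERP44 (both r = 0.822), and HOMEZ to ZNF839 (r = 0.884), VPS37C (r = 0.861) and NMRAL1 (r = 0.853). No member appeared among the closest genes of another. The points share lines and library scaling, and after subtracting line means the values ranged from 0.583 for ZHX3 with ZDHHC3 to 0.974 for NFYB with ZDHHC13.

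Around ZHX1 and ZHX2 on chromosome 8 the changes were mixed. Of the 5 tested genes on each side of ZHX2, none rose and 4 fell in the mean of the labelled lines: DEPTOR, MRPL13, MTBP and LINC01151. They all lay on the side away from ZHX1, here given a minus sign. DEPTOR, MRPL13 and MTBP were far from ZHX2, at -2.915, -2.457 and -2.393 Mb. LINC01151, at -0.195 Mb, was low, with a mean of 0.4353 CPM in Empty. SNTB1, at -2.204 Mb on the same side, was not called. Over all tested genes 12.6% were called lower. DERL1, the nearest tested gene toward ZHX1, differed by 0.03 (adjusted p = 0.627), so the nearest neighbour on that side did not follow ZHX2. Around ZHX1, 1 of 10 neighbours rose (FBXO32, a ubiquitin ligase component, 0.95) and 3 fell (ZHX2 itself, ATAD2 and ANXA13, an annexin, -1.0). FBXO32 was low, with a mean of 0.609 CPM in Empty. ATAD2, a chromatin ATPase, differed by -0.26 and lost its call without well a of Empty (adjusted p = 0.0863). The neighbours were named after their values were seen. The other members had 2 higher and 2 lower of 10 neighbours (ZHX3), 1 and 2 (HOMEZ), 3 and 1 (NFYA), 0 and 1 (NFYB) and 0 and 1 (NFYC), while 13% of all genes were called higher.

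**Figure D4:**
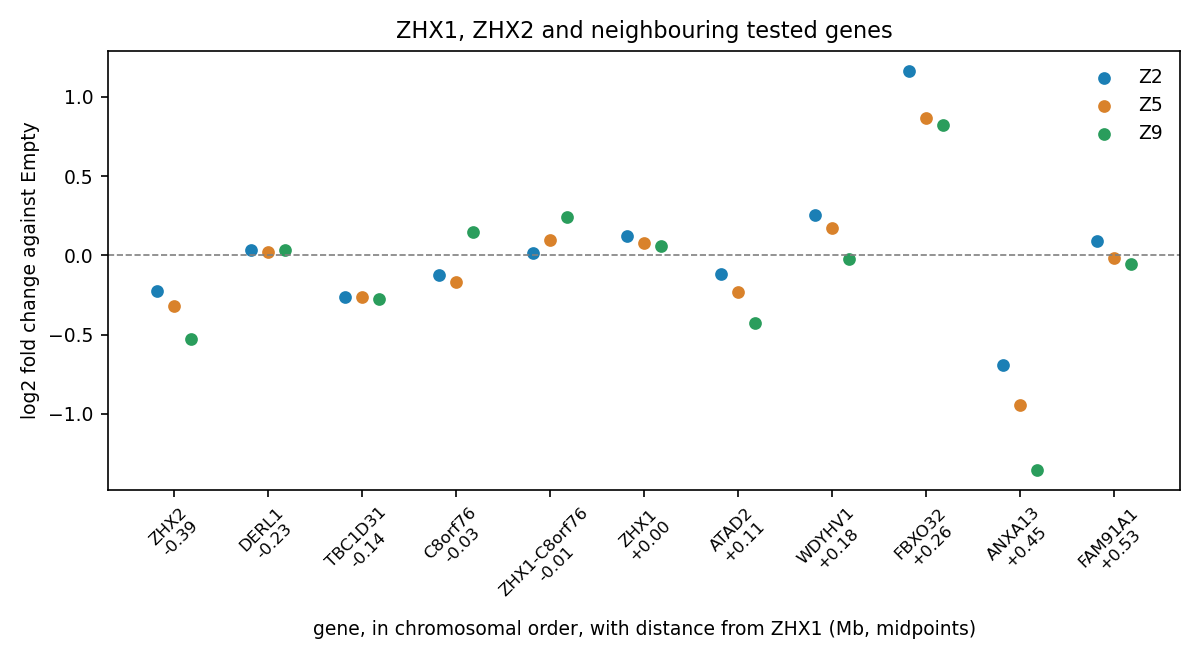
Log2 fold change against Empty (vertical axis) of ZHX2, ZHX1 and the tested genes around ZHX1 in Z2, Z5 and Z9, in chromosomal order with the distance from ZHX1 in Mb under each name. ZHX2 is below 0 in all 3 lines, ZHX1 and DERL1 stay near 0, FBXO32 is above 0 and ANXA13 below 0.

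Genes reported elsewhere as repressed by ZHX2 did not share 1 direction. Of 8 listed, 6 were tested, and for the mean of the labelled lines 1 rose and 2 fell, with a median of -0.10 against 0.003 for all genes. Among all tested genes 13% were called higher and 12.6% lower in that mean. AFP, which codes for alpha-fetoprotein, had line means of 10920, 12440, 11760 and 10110 CPM in Empty, Z2, Z5 and Z9, and differed from Empty by 0.06 (adjusted p = 0.476). AFP was lower in Z9 than in Z2 (-0.30, adjusted p = 0.0294). ZHX2 was also lower in Z9 than in Z2, so both differed in the same direction, and a link between them was not tested. The AFP difference was not examined in the other fits. Over all genes that comparison called 790 in the main fit and 32 when only those lines were fitted. ABCB1, a drug efflux pump, rose by 0.18 (adjusted p = 0.00612), and lost its call without well b of Empty (adjusted p = 0.0635). CCNA2, cyclin A2, differed by -0.34 (adjusted p = 0.00340). GPC3, a cell surface glypican, differed by -0.18 (adjusted p = 0.0143), and lost its call without well a (adjusted p = 0.0582) or c of Empty (adjusted p = 0.0597). Of 9 partners reported for ZHX proteins, 1 was called in the mean: DNMT3B, a DNA methyltransferase, at -0.52 (adjusted p = 0.000185). In Z2, Z5 and Z9 the count was 2, 1 and 2, where 23.9%, 15% and 19.2% of all tested genes were called. EZH2, HDAC1 and EFNB1 stood at -0.17, -0.11 and -0.16 and did not pass in the mean. Of 7 tested zinc-finger homeobox genes outside the family, ZFHX3 (0.28, adjusted p = 0.000259) and TSHZ2 (0.82, adjusted p = 0.00541) rose in the mean and 5 were not called.

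Beside the lower NFYA, the listed NF-Y target genes were taken in 3 groups by function. The lists hold genes reported as NF-Y targets and were drawn up with earlier results of these data known. Of those with a promoter entry, 11 of 17 cell cycle genes, 13 of 16 endoplasmic reticulum and heat shock genes and 7 of 11 sterol and fatty acid genes held CCAAT in the 250 bases. Of 20 cell cycle genes, 15 fell and none rose in the mean of the labelled lines, with a median of -0.34 against 0.003 for all genes. Among all tested genes 12.6% were called lower and 13% higher in that mean. The 4 with the smallest adjusted p were BIRC5, survivin (-0.45, adjusted p = 0.000289), AURKB, a mitotic kinase (-0.40, adjusted p = 0.000294), CCNB1, cyclin B1 (-0.38, adjusted p = 0.000460), and AURKA (-0.39, adjusted p = 0.000842). The count was 14, 12 and 14 in Z2, Z5 and Z9, where 11.5%, 6.68% and 9.58% of all tested genes were called lower. Of the 4 named, AURKB held 1 copy of CCAAT and CCNB1 2, while BIRC5 and AURKA had no promoter entry. BUB1B (-0.34) and CDC25C (-0.31), which held none, were also called lower in the mean, and were named after their values were seen. No test compared listed genes with and without CCAAT. Of 16 endoplasmic reticulum and heat shock genes, 1 rose (DNAJB9, 0.27, adjusted p = 0.000586) and 1 fell (XBP1, -0.13, adjusted p = 0.0259, lost without well a or c of Empty or well b of Z5, with adjusted p up to 0.198). Of 14 sterol and fatty acid synthesis genes, 4 fell in the mean: FDPS (-0.32), CYP51A1 (-0.24), HMGCS1 (-0.25) and SQLE (-0.21). HMGCS1 lost its call without well b of Empty (adjusted p = 0.0598), and SQLE without well c of Empty (adjusted p = 0.0688). In Z9, 10 of these 14 fell with a median of -0.36, in Z5 none fell, and in Z2 3 fell. The 1 sterol gene called higher was INSIG1, at 0.0327 CPM in Empty, a level too low to read a size from. Neither NFYA nor ZHX2 was tested as a source of these differences.

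**Figure D5:**
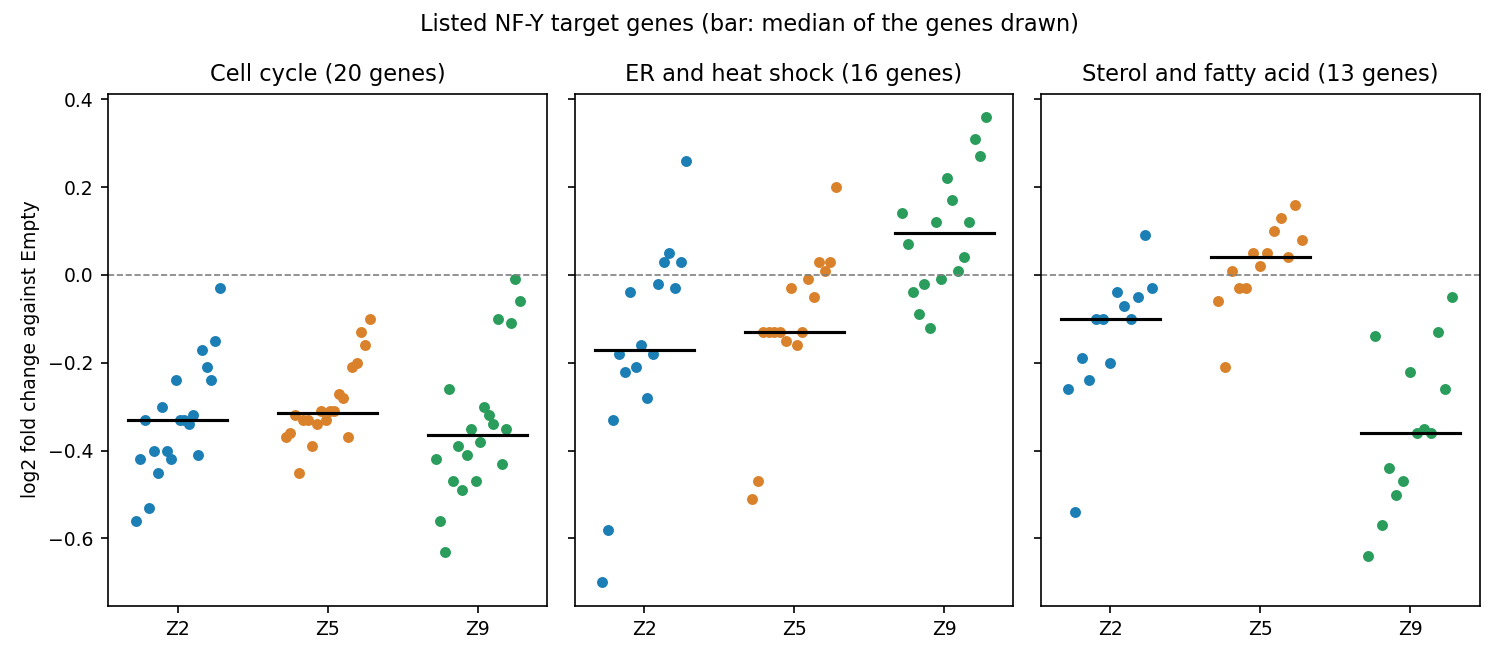
Log2 fold change against Empty (vertical axis) of the listed NF-Y target genes in Z2, Z5 and Z9, by function; each point is a gene, and the bar is the median of the genes drawn, with INSIG1 left out for its low counts. The cell cycle genes lie below 0 in every line, the sterol and fatty acid genes in Z9 lie below 0, and the endoplasmic reticulum and heat shock genes lie on both sides.

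CCAAT in the RefSeq promoters was also counted over all tested protein-coding genes with a promoter entry. Of 13346 tested protein-coding genes 10918 had a promoter entry, and 35.0% of these held at least 1 CCAAT in the 250 bases. None of the 19 tested genes listed around ZHX1 and ZHX2 at 8q24.13 had an entry. In the mean of the labelled lines 12.3% of the 7092 genes without a copy were called lower, 15.7% of the 2439 genes with 1 copy, 17.1% of the 900 with 2 copies and 23.2% of the 487 with 3 or more. The shares called higher were 14.0%, 12%, 12.4% and 10.3%, and the medians were 0.007, -0.012, -0.032 and -0.058. Leaving out the listed NF-Y targets left 7079, 2430, 889 and 477 genes, of which 12.2%, 15.6%, 16.9% and 22.6% were called lower. So few genes were taken out that these shares could hardly differ, and they are no separate check. The GC content of the window fell over the same classes, from a median of 66.0% to 61.2%, and the median level in Empty rose from 24.8 to 30.1 CPM. The part of these in the shares was not tested. HOMEZ, with 4 copies, NFYC, with 1, and ZHX3, with none, were not called, and NFYA, with none, was.

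A further list held 10 other factors described as CCAAT-binding, and whether they read the same box as NF-Y was not examined. In the mean of the labelled lines 5 of these 10 fell and none rose, where 12.6% of all tested genes were called lower. They were NFIC (-0.49, adjusted p = 4.42e-07), NFIA (-0.33, adjusted p = 0.000450), NFIB (-0.42, adjusted p = 0.00671), CEBPA (-0.59, adjusted p = 0.00574) and YBX1 (-0.19, adjusted p = 0.0291). CEBPA, a liver transcription factor, had line means of 114.5, 64.2, 81.8 and 83.4 CPM in Empty, Z2, Z5 and Z9. In single lines 4 fell and 1 rose in Z2, where 11.5% of all tested genes were called lower. In Z5 3 fell and 1 rose (6.68% of all genes lower), and in Z9 2 fell (9.58% of all genes lower). The riser was CEBPD, at 0.29 in Z2 (adjusted p = 0.00507) and 0.26 in Z5 (adjusted p = 0.0148), and at -0.12 in Z9 (adjusted p = 0.242). The count for the mean was 3 without well b of Empty, where NFIB (-0.33, adjusted p = 0.0691) and YBX1 (-0.20, adjusted p = 0.0824) lost their calls, and YBX1 was lost in 4 of 12 refits that left out 1 well. Of 11 other histone-fold genes related to NFYB and NFYC, 1 was called in the mean, TAF13 (-0.24, adjusted p = 0.0176), and not without well a (adjusted p = 0.0682) or b of Empty (adjusted p = 0.120). In single lines 1 was called in Z2 (POLE3), 2 in Z5 (TAF13 and TAF11) and none in Z9. Of all tested genes 23.9%, 15% and 19.2% were called in these lines. The count for the mean was between 0 and 4 when 1 well was left out, and highest without well a of Z2. Of 18 cofactors and partners of NF-Y, in the mean 1 rose (ATF6, 0.14, adjusted p = 0.0434) and 5 fell: MYBL2, FOXM1, LIN54, E2F1 and KAT2A, from -0.38 for MYBL2 to -0.12 for KAT2A. Without well a or without well b of Empty the count was 2 in place of 6. KAT2A, CEBPD, POLE3 and TAF11 were named after their values were seen. SP1, SREBF2 and EP300, common partners of NF-Y, stood at 0.04, -0.05 and -0.01 and were not called.

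The libraries held 50864744 to 65428204 counts, and each of the 7 genes had at least 3354 counts summed over the wells of a line. The hepatocyte identity of HepG2 was visible in all lines, with ALB at 11480 to 17530 CPM and AFP at 10110 to 12440 CPM by line mean. Of 12 hepatocyte markers 3 rose and 4 fell in the mean of the labelled lines, with ALB itself at -0.59 (adjusted p = 3.12e-07) and a median of -0.01. Among all tested genes 13% were called higher and 12.6% lower in that mean. Without well a of Empty 3 of the 12 were called and without well b 4. Fewer cells of a kind and less mRNA per cell cannot be told apart in these bulk libraries.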

How the data were processed

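RNA-seq of 4 HepG2 lines, 3 wells each, was deposited by the authors as raw read counts per gene symbol. STAR, featureCounts and hg38 were used, per the submitters' processing notes; no version, annotation or strand setting is stated in them. Samples were grouped by their titles. In R 4.3.3, edgeR 4.0.16 (limma 3.58.1) filtered genes with filterByExpr, scaled libraries by TMM and fitted 4 line means robustly by quasi-likelihood to all 12 libraries (8 residual degrees of freedom). Genes with a Benjamini-Hochberg adjusted p under 0.05 were called. CPM use TMM-scaled totals. SE and 95% intervals are from the same fit and cover the spread between wells. Between wells of the same line the chi-square of the counts was 6.31 to 45.8 per degree of freedom, so no library repeats another.

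Exon lengths came from GENCODE release 29 and were known for 93.5% of the tested genes; that release may differ from the authors' annotation. Positions and promoters are from RefSeq GRCh38.p14, and 4 of the 7 genes had a promoter entry. The 250 bases before each start were searched for CCAAT on both strands.

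The members and the gene lists were chosen with earlier results of these data known. All 7 members were named in each comparison, with the 3 genes of highest Pearson r over the 12 libraries (mean log2 CPM of at least 1, prior count 2) for each, and at most 4 higher and 4 lower called genes of each list by adjusted p; lists of 12 or fewer could be given whole. Alternatives were DESeq2 1.42.0 size factors and test, 2 other filters, a replicate block, fits restricted to the 2 lines compared, summing the wells of each line, and leaving out each well; the longest transcript as length was added after seeing the data. The fit was tested on simulated data first.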

Additional observations from a re-analysis of the deposited data

Results flagged for a closer look

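ZHX2 differed between 2 lines that both carry a ZHX3-directed guide. The log2 fold change was -0.30 for Z9 minus Z2, and the test of that difference passed (adjusted p = 0.0151 by edgeR's quasi-likelihood test). The 3 Z9 wells stood at 90.8 to 97.3 CPM and the 3 Z2 wells at 104 to 122 CPM. By the same test, the call was lost when Z2 and Z9 alone were fitted (adjusted p = 0.107). It was also lost without well c of Z2, well b of Z9 or well c of Z9. The line, its guide and its history cannot be told apart, since each guide is present in 1 line.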

How the results depend on the processing

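Across the alternatives, ZHX2 stayed below Empty in each labelled line, and no called change of a member reversed. When only the groups compared were fitted, the number of the 7 genes called was 0 for Z2 minus Empty (ZHX2 adjusted p = 0.0599, NFYA 0.0804), 2 for Z5 minus Empty, 0 for Z9 minus Z2 and 1 for Z9 minus Z5. DESeq2's test called 2 for Z5 minus Empty, adding NFYA (adjusted p = 0.0496). With the wells of each line summed, which leaves 1 Empty sample and fewer degrees of freedom, 0 were called for the mean of the 3 lines (ZHX2 -0.36, adjusted p = 0.0518; NFYA -0.18, adjusted p = 0.223) and 1100 of all genes in place of 3911. With 1 well left out, the number called ranged from 1 to 3 for Z2 minus Empty, 1 to 2 for Z5 minus Empty, 1 to 3 for the mean, 0 to 1 for Z9 minus Z2, 0 to 1 for Z9 minus Z5 and 1 to 2 for any difference.

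Signs changed in refits without 1 well for uncalled values near 0. The log2 ranges were -0.04 to 0.11 for NFYB in Z2 minus Empty, -0.016 to 0.006 for ZHX3 and -0.03 to 0.048 for HOMEZ in Z5 minus Empty, and -0.018 to 0.023 for HOMEZ in the mean. They were -0.009 to 0.05 for NFYA and -0.059 to 0.042 for NFYC in Z5 minus Z2, -0.022 to 0.01 for ZHX3 and -0.011 to 0.089 for NFYC in Z9 minus Z2, and -0.065 to 0.005 for ZHX1 and -0.059 to 0.016 for NFYB in Z9 minus Z5. The cause was not tested.

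The replicate block, with the well letter as a term, left the number of members called at 2, 1 and 2 for Z2, Z5 and Z9 and 2 for their mean, and changed no member's call. Nothing in the labels ties wells of the same letter to each other. Over 18 same-letter pairs the correlation of deviations ran from -0.36 to 0.49 with a median of 0.14, and 11 were over 0.1. Over 36 pairs of different letters it ran from -0.43 to 0.42 with a median of -0.07, and 9 were over 0.1. The same-letter pairs were thus higher on the whole but not in every pair, and 6 of 12 libraries correlated best with their own letter. The block raised the calls over all genes for Z9 minus Z2 from 790 to 1512 and for Z9 minus Z5 from 232 to 488, and fitting only the groups compared gave 32 and 664; DESeq2's test gave 1509 and 495. For the mean and the test of any difference, fits of only the groups compared could not be made, since they use all lines, and summed wells were fitted for the mean alone. Of 43 named list genes, 26 lost their call under at least 1 alternative, most often with summed wells. Each member had at least 3354 counts summed over the wells of a line.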
